A study of Mus musculus with 7 samples.

Results

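The transcripts of 10 genes of the integrated stress response (ISR) and of its transcription factor ATF4 were examined in B-cell precursor (BCP) cells of Eμ-Ret mice before and after the onset of overt leukemia. The genes were chosen by symbol among the 24341 genes of the deposited expression table, by a rule that uses no measured value. Earlier results of these data were known when they were chosen. They are the transcription factors Atf4, Atf5, Atf3 and Ddit3, the stress outputs Ddit4, Trib3 and Chac1, and the amino acid enzymes Asns, Psat1 and Phgdh. All 10 were in the table, and 9 of them passed the filter on low values (a sum of at least 10 FPKM over the 7 samples), with Atf3 below it. FPKM is a fragment count scaled to transcript length and to library depth, so that levels of different genes can be set side by side.

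All samples came from spleens of mice that were Emu-Ret hemizygotes on a BALB/c background, and the labels give both groups as BCP cells sorted by flow cytometry. For its culture experiments the study mostly used leukemic spleen cells without enrichment. The transgene is a Ret fusion placed under the enhancer of the immunoglobulin heavy chain locus, and both groups carry it. The 3 leukemic samples came from mice moribund with overt disease, and the 4 preleukemic samples came from young mice that carried the abnormal BCP population before disease was overt. Mice of the groups differed in age as well as in disease, so that age and leukemia cannot be told apart. The age of each mouse is not given in the sources used here. The comparison asks which transcripts differ between the preleukemic cells and the leukemia that follows them.

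In the ISR, stress kinases (PERK for the endoplasmic reticulum, GCN2 for lack of amino acids, PKR for double-stranded RNA and HRI for lack of heme or mitochondrial stress) phosphorylate the translation factor eIF2. Protein synthesis falls in general while the mRNA of ATF4 is translated more, so that ATF4 protein can rise with little change in its transcript. ATF4 then binds C/EBP-ATF response elements and raises genes for amino acid synthesis, transport and tRNA charging, and with CHOP (Ddit3) it raises genes that slow growth or favor cell death. In developing B cells, which pass from antigen receptor rearrangement to rapid division, the response is known as a sensor of nutrient supply and of the folding load.

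The sequences shown first are the response elements themselves, since they mark which of the genes carry the core letters of an ATF4 element close to the start of transcription. The letters TGATGNAA were searched on both strands of the RefSeq promoter windows (GRCm38.p6, 250 bases before to 50 after each start). Windows were found for all 10 genes, and 4 genes held a match, against 4.51% of the 27025 genes with a window. Each line gives 30 bases 5′ to 3′ on the strand of the gene, with the match in capitals.
Atf3, chr1:191183425-191183454, minus strand: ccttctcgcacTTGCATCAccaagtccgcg
Chac1, chr2:119351038-119351067, plus strand: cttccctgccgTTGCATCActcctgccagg
Trib3, chr2:152344028-152344057, minus strand: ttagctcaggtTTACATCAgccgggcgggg
Asns, chr6:7693214-7693243, minus strand: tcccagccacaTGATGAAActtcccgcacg

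In Atf3, Chac1 and Trib3 the match lay on the strand opposite to the gene, which is why the capitals there begin with TT. The match began 110 bases before the start in Atf3, 193 before it in Chac1 and 23 before it in Asns, counted from the RefSeq starts. The GENCODE models of Atf3 and Asns begin further upstream, so that these matches lie within the GENCODE genes. In Trib3 it lay 15 to 22 bases after the RefSeq start and before the GENCODE start. The ER stress element (CCAAT, 9 bases of any kind, CCACG), the site of the ATF6 arm, was found in none of the 10 genes and in 0.137% of all genes, a share at which no match among 10 says little. The remaining 6 genes held neither set of letters in this window, which says nothing about sites elsewhere.

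The libraries were of like depth, between 13.6 M and 16.2 M fragments as read from the steps of the lowest values, and counting alone leaves an error of about 22.1% on 1 FPKM and 7.0% on 10 FPKM of a transcript with 1500 effective bases at the lowest depth. The sorted cells expressed B-cell precursor markers (for example Vpreb3 at 732 to 2189 FPKM and Cd79a at 869 to 1626 FPKM), and 4 of the 16 markers tested were lower in leukemic cells, or 8 after quantile normalization and 12 after scaling every sample to the same FPKM sum. All 14 red cell precursor markers tested were higher in leukemic cells, with summed levels of 5741, 26494 and 12913 FPKM in leukemic 1, 2 and 3 against 2827 FPKM in preleukemic 1 and 423 to 447 FPKM in preleukemic 2 to 4, and Hbb-bs at the floor of the table in every sample. Macrophage markers summed to 155, 332 and 246 FPKM in leukemic cells and 35.4 to 85.9 FPKM in preleukemic cells, with 6 of 9 called higher, and neutrophil markers to 1424 to 1762 FPKM against 149 to 869 FPKM, with 5 of 10 called higher. Of the T and NK cell markers 0 of 8 were called by limma (3 at an unadjusted p under 0.05), and of the plasma cell markers 1 of 5. The marker calls depended on single samples. Leaving out preleukemic 2, 3 or 4 left 1 red cell call, 1 macrophage call and 0 neutrophil calls by limma (14, 9 and 9 at an unadjusted p under 0.05) and 1 or 2 B-cell precursor calls, and leaving out preleukemic 1 left 13 red cell, 2 macrophage and 9 neutrophil calls. Without leukemic 1, 2 and 3 the calls were 14, 10 and 9 for red cells, 9, 4 and 2 for macrophages, 1 each for neutrophils and 7, 8 and 6 for B-cell precursors. Of the 7 B-cell precursor calls without leukemic 1, 1 was higher and 6 were lower in leukemic cells. In such bulk samples more cells of a type and more RNA per cell cannot be told apart. The part of these other cells in the results was not tested, and their levels are given beside the genes they move with.

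Of the 9 ISR genes tested, 1 differed between the groups. Ddit4 was higher in leukemic cells, and the other 8 did not pass the threshold (limma on log2(FPKM + 1), adjusted p under 0.05 over 10541 genes). Over all genes 14.7% were called, 893 (8.47%) higher and 660 (6.26%) lower. The split depends on the scaling, with 754 higher and 907 lower after quantile normalization and 686 higher and 2231 lower after scaling every sample to the same FPKM sum, which shifts the median of all genes to -0.18 from -0.02 on the log2 scale. Groups did not overlap for 2 of the 10 genes, Ddit4 and Atf3, against 32% of all genes tested. The 1 call in 9 is near the background share. Without leukemic 2 and preleukemic 1, the samples with the highest red cell sums of their groups and a choice made after the data were seen, the calls were 2 of 9, Ddit4 higher (log2 difference 2.19, adjusted p = 0.00258) and Trib3 lower (-0.82, adjusted p = 0.0404), where 10.5% of all genes were called.

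**Figure D1:**
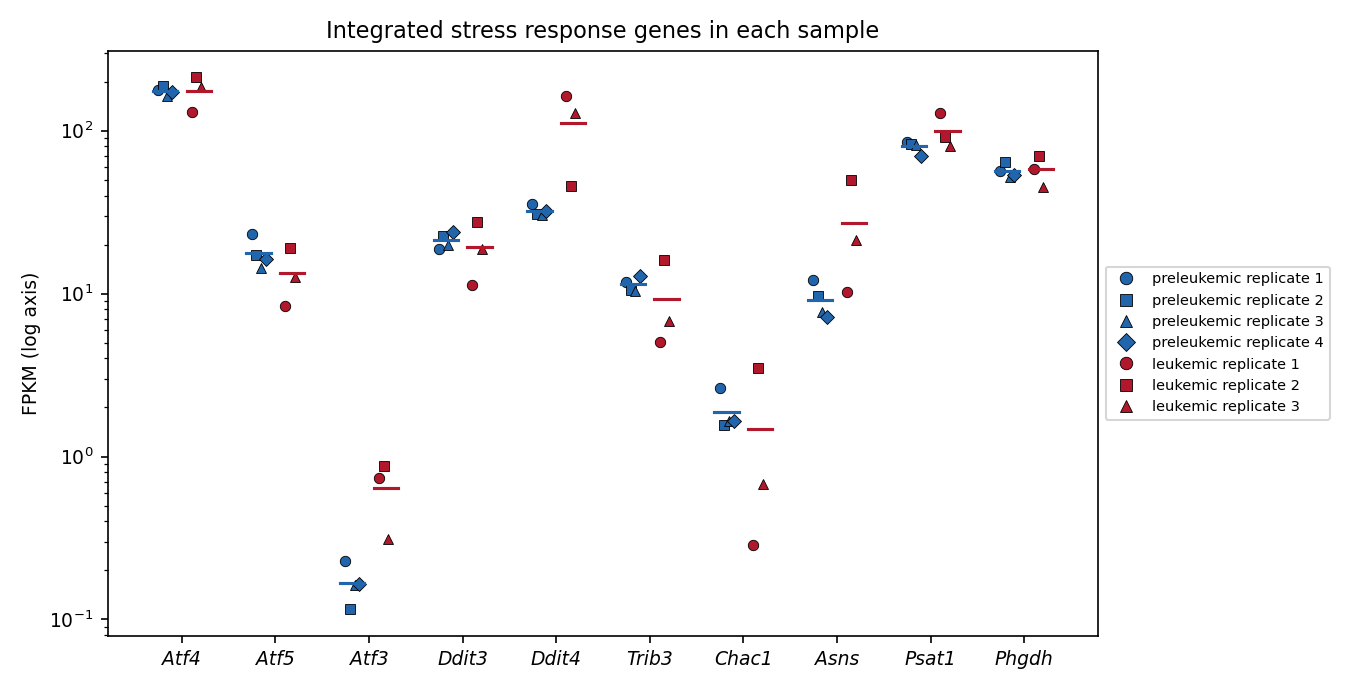
FPKM of the 10 ISR and ATF4 target genes (log axis) in the 3 leukemic and 4 preleukemic samples, 1 point per sample and a bar at each group mean. Leukemic and preleukemic points are apart for Ddit4 and Atf3 and overlap for the other 8 genes, and the leukemic points are spread the most for Chac1 and Asns.

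Among the transcription factors, Atf4, which stands at the center of the response, was abundant in both groups and did not pass the test. Its transcript measured 130, 212 and 185 FPKM in leukemic 1, 2 and 3, and 177, 189, 164 and 173 FPKM in preleukemic 1 to 4. Leukemic 1 was the lowest of the 7 samples and leukemic 2 the highest, so that the leukemic samples enclosed the whole preleukemic range. The group means were 176 ± 42.1 FPKM (SD, n = 3) and 176 ± 10.3 FPKM (SD, n = 4), and the difference was -0.03 on the log2 scale (SE 0.16, limma adjusted p = 0.921), with a 95% interval of -0.40 to 0.35. Atf4 lies on chr15:80255184-80257545 (GRCm38), where the median of all genes of the chromosome was 0.02, and 0.19 in leukemic 3 alone. The table measures the transcript, not the translation on which ATF4 protein depends.

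Atf5, a relative of Atf4 whose mRNA is also translated under stress, measured 8.39, 19.1 and 12.6 FPKM in leukemic cells and 23.1, 17.3, 14.4 and 16.4 FPKM in preleukemic cells. A pair of leukemic samples lay under every preleukemic sample and leukemic 2 lay among them. The log2 difference was -0.44 (SE 0.26, limma adjusted p = 0.273). The gene was listed at chr7:44812256-44849079, an interval that reaches past its own annotated end, and 4.11% of its exonic bases overlap Nup62 and Il4i1 on the opposite strand.

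Ddit3 encodes CHOP, which ATF4 induces and which acts on later targets of the response. It measured 11.3, 27.4 and 18.8 FPKM in leukemic cells against 18.7, 22.5, 20 and 23.9 FPKM in preleukemic cells. Leukemic 1 was the lowest sample and leukemic 2 the highest, as for Atf4. Between the groups the log2 difference was -0.22 (SE 0.26, limma adjusted p = 0.578), and its sign turned without leukemic 1, where it was 0.10. The gene was listed at chr10:127290793-127311786, an interval that is also given for Mars and reaches past the annotated end of Ddit3. Of its exonic bases, 3.97% overlap Mars on the opposite strand.

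Atf3, an early stress gene that is induced by ATF4 and by other signals, was near the limit of detection. It measured 0.734, 0.871 and 0.313 FPKM in leukemic cells and 0.229, 0.116, 0.163 and 0.165 FPKM in preleukemic cells. Every leukemic sample was above every preleukemic sample, with leukemic 3 closest to them. The mean difference was 0.47 on log2(FPKM + 1) and 1.39 on log2(FPKM + 0.1), and the exact two-sided permutation test gave p = 0.0286 on either scale, the smallest that 35 labelings of 7 samples can give. This p is not adjusted for the number of genes. It rests on groups that do not overlap, as was so for 32% of all genes tested, so that the second scale adds no support. At 0.1 FPKM the counting error is about 70% for 1500 effective bases, so that the size of the change is poorly known. A list of early response genes that tissue handling induces was read beside it, where 8.47% of all genes were higher and 6.26% lower. Of 12 tested, 7 were not called, 1 was lower and 4 were higher. Of these, Fos measured 6.61, 2.31 and 13.3 FPKM against 0.611 to 1.85 FPKM (log2 difference 1.88, limma adjusted p = 0.041), Nr4a1 3.80 to 7.09 FPKM against 0.635 to 1.48 FPKM (1.53, limma adjusted p = 0.0163), and Ier3 1.67 to 5.32 FPKM against 0.01 to 0.761 FPKM (1.78, limma adjusted p = 0.0226). Without 1 sample the calls held in 1, 5 and 4 of 7 fits for Fos, Nr4a1 and Ier3. Egr1, the lower one and named after its values were seen, measured 7.32, 12.3 and 15.7 FPKM against 29.9, 32.9, 28.1 and 19.5 FPKM (-1.20, SE 0.26, limma adjusted p = 0.0278). Ier2, also named after its values were seen, was below the preleukemic range in all 3 leukemic samples and did not pass the test (-0.51, limma adjusted p = 0.115). The part of handling in the Atf3 values was not tested.

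Ddit4 (REDD1), which restrains the growth kinase complex mTORC1 and responds to ATF4, hypoxia and glucocorticoids, was the ISR gene that rose. It measured 163, 45.5 and 129 FPKM in leukemic 1, 2 and 3, and 35.6, 30.8, 30.3 and 32.0 FPKM in preleukemic 1 to 4. All 3 leukemic samples were above all 4 preleukemic samples, leukemic 2 by a small margin and the other two by a wide one. The means were 112 ± 60.5 FPKM (SD, n = 3) and 32.2 ± 2.42 FPKM (SD, n = 4), a log2 difference of 1.59 (SE 0.39, limma adjusted p = 0.038), or 3.01-fold, with a 95% interval of 0.67 to 2.51. The fit takes a common spread for both groups. The log2 SD of Ddit4 was 0.97 in leukemic and 0.1 in preleukemic samples, which the interval and p-value do not allow for. The call was close to the threshold. Leaving out leukemic 1 (log2 difference 1.23, adjusted p = 0.0711), leukemic 3 (1.40, adjusted p = 0.0817) or any preleukemic sample (1.56 to 1.64, adjusted p = 0.0719 to 0.106) ended it, and leaving out leukemic 2 raised the difference to 2.14 (adjusted p = 0.00108). Without the filter on low values the adjusted p was 0.059. Leukemic 2, the lowest leukemic sample for Ddit4, had the highest sum of red cell markers. The gene lies on chr10:59949675-59951770, where the chromosome median was -0.05.

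The list of genes that hypoxia or glucocorticoids induce was measured beside Ddit4, since these are its other known inputs. Of 11 tested, 2 were higher and 0 lower, where 8.47% of all genes were higher and 6.26% lower. The median log2 difference was 0.30 against -0.02 over all genes, and 10 of the 11 differences were positive. Vegfa, named after its values were seen, was the exception (-0.63, limma adjusted p = 0.223). The part of these inputs in the Ddit4 values was not tested. Tsc22d3 (GILZ), a glucocorticoid target, measured 83.2, 84.3 and 81.4 FPKM against 47.0, 56.1, 41.0 and 43.7 FPKM (log2 difference 0.82, SE 0.11, limma adjusted p = 0.0109), and its call held in all 7 fits that leave out 1 sample. In contrast to Ddit4 its leukemic values were nearly equal. Bnip3l, a hypoxia-induced mitophagy receptor that red cell precursors also use, was at the threshold (0.52, limma adjusted p = 0.0499), and the call held in 1 of 7 such fits.

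The pseudokinase Trib3, a target of ATF4 and CHOP that restrains both, measured 5.03, 16.1 and 6.81 FPKM in leukemic cells and 11.8, 10.5, 10.3 and 12.8 FPKM in preleukemic cells. Leukemic 1 and 3 were under the whole preleukemic range and leukemic 2 was above it. Over all samples the log2 difference was -0.40 (SE 0.33, limma adjusted p = 0.403). Without leukemic 2 it was -0.84 (adjusted p = 0.0197), which passed the threshold, so that the result for Trib3 rests on whether this sample is included. The gene lies on chr2:152337425-152344060.

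Chac1, a glutathione-degrading enzyme and one of the most ATF4-dependent genes known, was low. It measured 0.285, 3.48 and 0.676 FPKM in leukemic cells and 2.62, 1.55, 1.64 and 1.66 FPKM in preleukemic cells. As for Trib3, leukemic 1 and 3 were below and leukemic 2 above all preleukemic samples. The log2 difference was -0.42 (SE 0.43, limma adjusted p = 0.51), and -0.92 with a pseudocount of 0.1, since a pseudocount of 1 shrinks changes at this level. Without leukemic 2 it was -0.95 (adjusted p = 0.0506). The gene lies on chr2:119351242-119354327. With Trib3 it shares the element shown above, the chromosome and this order of samples. Asns, which holds the element, was also highest in leukemic 2 and lowest in leukemic 1. So were Atf4, Atf5 and Ddit3, which do not hold it in this window, and 20.9% of all genes tested. Atf3 holds the element and was lowest in leukemic 3. A link between element and order was not tested.

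Asns, asparagine synthetase, whose low level makes lymphoblasts depend on asparagine from blood, varied widely among the leukemias. It measured 10.3, 49.7 and 21.4 FPKM in leukemic cells and 12.1, 9.65, 7.71 and 7.18 FPKM in preleukemic cells. Leukemic 2 and 3 exceeded every preleukemic sample, and leukemic 1 lay within their range. The log2 difference was 1.23 (SE 0.46, limma adjusted p = 0.11), with a 95% interval of 0.15 to 2.31 that is not adjusted for the number of genes. Without leukemic 1 it passed the threshold (1.76, adjusted p = 0.0218), and without leukemic 2 it was 0.67 (adjusted p = 0.177). The samples ran in the same order within the leukemic group as the sum of red cell markers (leukemic 2 highest, leukemic 1 lowest). The gene lies on chr6:7675171-7693182.

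The enzymes of serine synthesis, Phgdh and Psat1, which catalyze its first and second steps, did not pass the test. Phgdh measured 58.0, 70.1 and 45.2 FPKM in leukemic cells and 56.8, 63.8, 52.3 and 53.7 FPKM in preleukemic cells, and the ranges overlapped. The log2 difference was 0.01 (SE 0.15, limma adjusted p = 0.969), with a 95% interval of -0.34 to 0.36. Psat1 measured 129, 91.6 and 80.6 FPKM against 85.4, 83.2, 81.3 and 70.1 FPKM. Leukemic 1 was the highest for Psat1, unlike for most of the genes, and leukemic 3 was within the preleukemic range. The log2 difference was 0.30 (SE 0.16, limma adjusted p = 0.231). Phgdh lies on chr3:98313171-98339969 and Psat1 on chr19:15905123-15925059, and chromosome medians were -0.06 and -0.04.

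In preleukemic cells the order of mean levels was Atf4 (176 FPKM), Psat1 (80.0), Phgdh (56.6), Ddit4 (32.2), Ddit3 (21.3), Atf5 (17.8), Trib3 (11.4), Asns (9.15), Chac1 (1.87) and Atf3 (0.168). Neighbors in this order overlapped in their sample ranges for Ddit3 and Atf5 and for Trib3 and Asns, and were apart elsewhere. In leukemic cells the mean of Ddit4 (112 FPKM) moved to the second place and that of Asns (27.2 FPKM) to the fifth. Within that group the samples of Psat1 and Phgdh, and of Trib3 and Chac1, stayed apart, while every other pair of neighbors overlapped.

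The ISR genes differed more among the leukemias than among the preleukemic samples. The ratio of the highest to the lowest leukemic sample was 12.2 for Chac1, 4.83 for Asns, 3.59 for Ddit4, 3.19 for Trib3, 2.78 for Atf3, 2.42 for Ddit3, 2.27 for Atf5, 1.64 for Atf4, 1.60 for Psat1 and 1.55 for Phgdh. In preleukemic cells the same ratio was between 1.15 and 1.98 for the 10 genes. Over the 9 genes past the filter the median ratio was 2.42 in leukemic and 1.24 in preleukemic cells, against 1.35 and 1.24 over all genes tested. The leukemic range was the wider in 9 of 9, and in 66.3% of all genes. These are descriptions of 3 leukemias and carry no test.

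**Figure D2:**
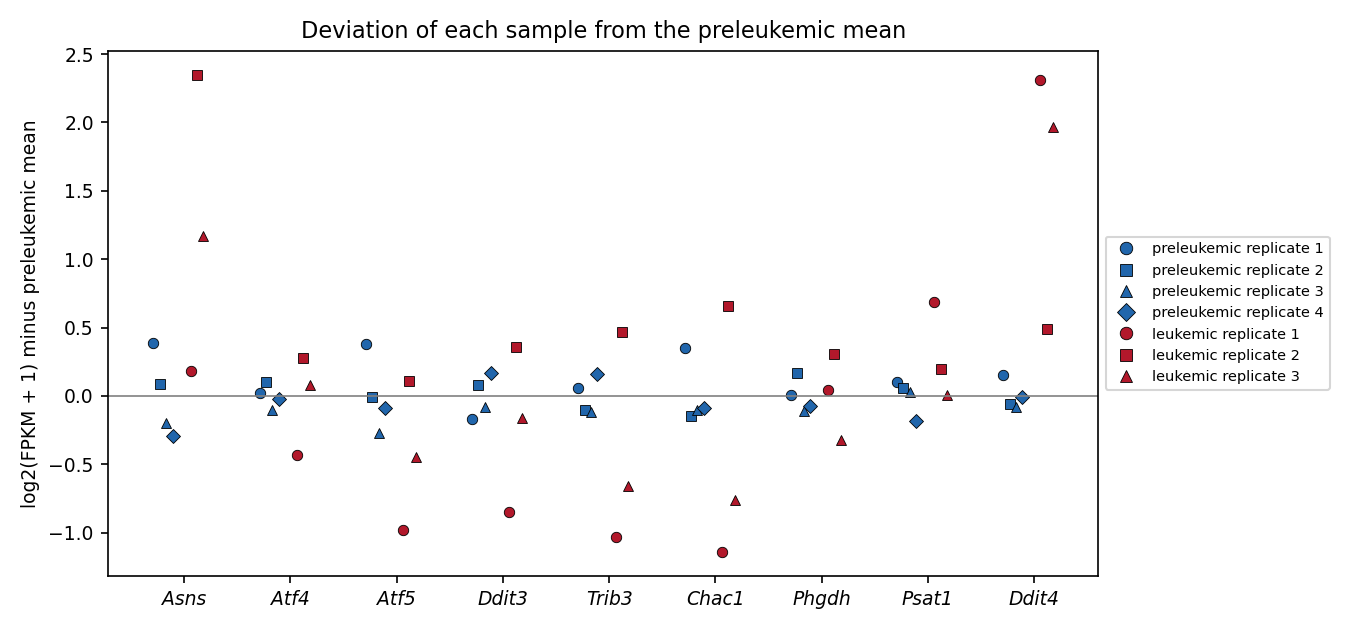
Log2(FPKM + 1) of each ISR and ATF4 target gene other than Atf3 in each sample, less the preleukemic mean of the gene. Leukemic 1 is below 0 for Atf4 (-0.43), Atf5 (-0.98), Ddit3 (-0.85), Chac1 (-1.14) and Trib3 (-1.03), where leukemic 2 is above 0, and Ddit4 shows the reverse order with 2.31 in leukemic 1 and 0.49 in leukemic 2.

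Among the leukemias, 6 genes (Atf4, Atf5, Ddit3, Asns, Chac1 and Trib3) were highest in leukemic 2 and lowest in leukemic 1. That order was held by 20.9% of all genes tested. Ddit4 held the opposite order, highest in leukemic 1 and lowest in leukemic 2. Leukemic 2 was also the sample with the highest sums of red cell and macrophage markers, and leukemic 1 the one with the lowest sum of B-cell precursor markers (4325 FPKM, against 6871 and 5738 FPKM in the other two). The part of these in the order was not tested. In the preleukemic group, preleukemic 1 was the highest sample for 6 of the 10 genes, as it was for 24.9% of all genes tested, and it held the highest red cell sum of that group.

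The 2 genes most like Atf4 over the 7 samples by Pearson r of log2(FPKM + 1) were Ugcg (0.994) and Znfx1 (0.985), and the 2 most like Ddit4 were Ssbp2 (0.997) and Ckap4 (0.997). These were picked as the highest of 10541 genes and the points fall into the 2 groups, so that the values are descriptions. Ckap4 measured 12.1, 3.54 and 9.36 FPKM in leukemic cells against 1.97 to 2.75 FPKM, with the same order of samples as Ddit4 among the leukemias.

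The kinases upstream of eIF2 changed in different directions. Eif2ak1 (HRI), the heme-regulated kinase, measured 39.8, 77.1 and 55.9 FPKM in leukemic cells and 32.8, 27.9, 29.1 and 29.5 FPKM in preleukemic cells, and was higher by 0.88 on the log2 scale (SE 0.20, limma adjusted p = 0.0313). The groups did not overlap, and the samples ran in the order of their red cell sums through leukemic 2, 3, 1 and preleukemic 1. The call was lost without leukemic 3 or any 1 preleukemic sample (adjusted p up to 0.0918). Eif2ak3 (PERK), the kinase of the endoplasmic reticulum, measured 33.1, 54.4 and 43.5 FPKM against 76.7, 79.9, 82.2 and 92.8 FPKM, and was lower by 0.93 (log2 difference -0.93, SE 0.16, limma adjusted p = 0.0167). Every leukemic sample was below every preleukemic one, and the call was lost without preleukemic 3 or 4 (adjusted p up to 0.0619). All 7 samples of Eif2ak3 ran in the order of their sums of B-cell precursor markers. These were 4325, 6871 and 5738 FPKM in leukemic 1 to 3 and 8351, 8555, 9913 and 10477 FPKM in preleukemic 1 to 4. The part of precursor content in the Eif2ak3 values was not tested. Eif2ak2 (PKR) rose to 20.8 to 25.8 FPKM from 15.0 to 16.6 FPKM (0.50, SE 0.09, limma adjusted p = 0.0191), lost without preleukemic 2, 3 or 4. It lies on chromosome 17, where the median of all genes was 0.35, with 199 genes higher and 3 lower. Eif2ak4 (GCN2), the sensor of uncharged tRNA, had a log2 difference of -0.23 (SE 0.13, limma adjusted p = 0.255).

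**Figure D3:**
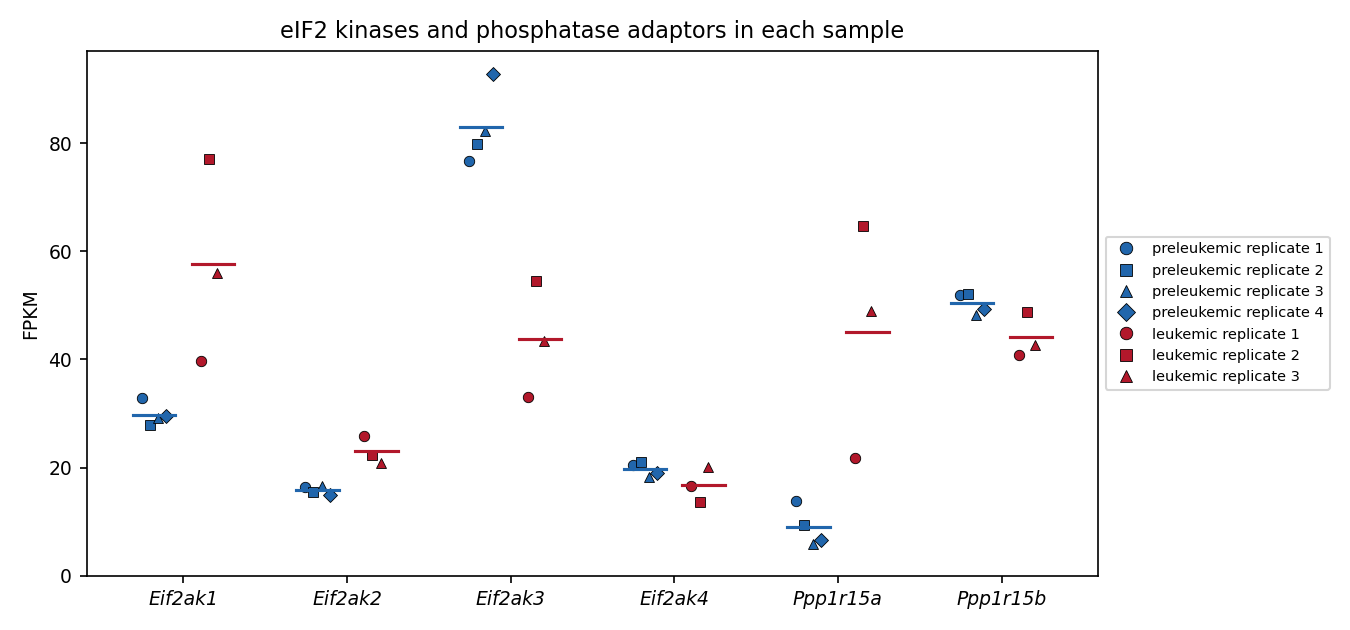
FPKM of the eIF2 kinases Eif2ak1 to Eif2ak4 and of Ppp1r15a and Ppp1r15b in each sample, with a bar at each group mean. Leukemic samples are above preleukemic ones for Eif2ak1, Eif2ak2 and Ppp1r15a and below them for Eif2ak3, and the groups overlap for Eif2ak4 and Ppp1r15b.

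Ppp1r15a (GADD34), the stress-induced subunit that returns eIF2 to its unphosphorylated state and a known target of ATF4 and CHOP, measured 21.7, 64.7 and 49.0 FPKM against 13.8, 9.45, 5.86 and 6.61 FPKM. The groups did not overlap, the samples ran in the order of the red cell sums as Eif2ak1 did, and the log2 difference was 2.15 (SE 0.40, limma adjusted p = 0.0191). The call was lost without preleukemic 2, 3 or 4 (adjusted p up to 0.0679). Its constitutive counterpart Ppp1r15b, named after its values were seen, had a log2 difference of -0.19 (SE 0.08, limma adjusted p = 0.156). In the list of kinases and phosphatase subunits, 3 of 13 genes tested were higher and 1 lower, with a median of -0.04. The shares over all genes were 8.47% higher and 6.26% lower. Of the 10 subunits of eIF2 and its exchange factor eIF2B, 1 was called higher, Eif2b4 (0.32, limma adjusted p = 0.0425), and that call was lost without any 1 sample.

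Of 13 possible bZIP partners of ATF4, 3 were higher and 0 lower, where 8.47% of all genes were higher and 6.26% lower. Fos, described above, was among the 3. After scaling every sample to the same FPKM sum the same list gave 2 higher and 3 lower. Cebpb, which pairs with ATF4 and with CHOP and is abundant in myeloid cells, measured 5.43, 6.25 and 11.3 FPKM against 1.23, 0.676, 0.275 and 0.223 FPKM (log2 difference 2.42, SE 0.31, limma adjusted p = 0.0096), and the call held without any 1 sample. Its leukemic level was highest in leukemic 3, the sample with the highest neutrophil sum (1762 FPKM). Leukemic 1 and 2 did not follow that sum, which was 1538 and 1424 FPKM in them. Of the exonic bases of Cebpb, 20.7% overlap Tmem189 on the opposite strand. Mafg had a log2 difference of 0.99 (limma adjusted p = 0.0463), lost without any 1 sample. Cebpg, the partner of ATF4 that most cells use, had a difference of -0.15 (SE 0.08, limma adjusted p = 0.238), with 18.3 to 19.9 FPKM in leukemic and 20.4 to 23.3 FPKM in preleukemic cells. The groups of Cebpg did not overlap.

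The amino acid transporters were the list with the largest number of calls among ATF4 outputs, 4 higher and 0 lower of 10 tested. Over all genes 8.47% were higher and 6.26% lower. The median log2 difference of the list was 0.05. The chains of the leucine and glutamine exchanger both rose: Slc3a2 measured 46.5, 59.3 and 52.0 FPKM against 34.9, 30.2, 37.3 and 33.6 FPKM (0.61, SE 0.11, limma adjusted p = 0.0172), and Slc7a5 46.5, 57.4 and 43.9 FPKM against 31.0, 26.7, 25.4 and 26.8 FPKM (0.81, SE 0.12, limma adjusted p = 0.0121). Both calls were lost without preleukemic 4 (adjusted p up to 0.0639) and held without any other 1 sample. Slc6a9, a glycine transporter that red cell precursors need for heme synthesis, measured 7.38, 24.3 and 17.1 FPKM against 3.44, 0.491, 0.305 and 0.286 FPKM (3.10, SE 0.54, limma adjusted p = 0.0168). Slc43a1 measured 35.1, 82.7 and 60.7 FPKM against 24.0 to 30.4 FPKM (1.08, limma adjusted p = 0.0368). Both ran in the order of the red cell sums through leukemic 2, 3, 1 and preleukemic 1, and 27.8% of the exonic bases of Slc6a9 overlap Ccdc24. The Slc6a9 call was lost without preleukemic 2, 3 or 4, and that of Slc43a1 held in 1 of 7 fits without 1 sample. Slc7a11, the cystine transporter and a much used ATF4 target, stayed at 0.015 to 0.0429 FPKM in all 7 samples. Slc38a2, named after its values were seen, was lower in every leukemic sample, with 72.2, 97.1 and 89.3 FPKM against 103 to 132 FPKM. It did not pass the test (-0.39, SE 0.13, limma adjusted p = 0.083). The list gave 4 higher and 1 lower after scaling to the same FPKM sum, and 3 higher and 1 lower without leukemic 3.

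The other metabolic outputs gave few calls, where 8.47% of all genes were higher and 6.26% lower. Of 8 enzymes of serine, glycine and one-carbon metabolism, 1 was higher and 0 lower, with a median log2 difference of 0.39. The called gene was the cytosolic Mthfd1 (0.67, SE 0.15, limma adjusted p = 0.0274), which was lost without leukemic 1 or 2 or preleukemic 2, 3 or 4. The mitochondrial enzymes that ATF4 is known to drive had differences of 0.45 for Shmt2 (limma adjusted p = 0.0978) and 0.43 for Mthfd2 (limma adjusted p = 0.149), and Psph, the last step of serine synthesis, 0.30 (limma adjusted p = 0.176). Of 12 enzymes of proline, asparagine, cysteine and transamination, 2 were higher and 0 lower. They were the subunits of the enzyme that begins glutathione synthesis, Gclm with 35.7, 65.7 and 42.5 FPKM against 18.1, 8.61, 9.66 and 9.18 FPKM (2.0, SE 0.29, limma adjusted p = 0.0123) and Gclc (0.44, limma adjusted p = 0.0411), whose call held in 1 of 7 fits without 1 sample. Gclc lies on chromosome 9, where the median of all genes was 0.22. The Gclm call was lost without preleukemic 4 (adjusted p = 0.0508), and the samples of Gclm too ran in the order of the red cell sums through leukemic 2, 3, 1 and preleukemic 1.

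Charging of tRNA, mitochondrial stress and the remaining outputs were measured next, where 8.47% of all genes were higher and 6.26% lower. Of 20 cytosolic aminoacyl-tRNA synthetases, 3 were higher and 0 lower, with a median of 0.11: Vars (0.51, limma adjusted p = 0.01), Qars (0.45, limma adjusted p = 0.0283) and Hars (0.35, limma adjusted p = 0.0331). Of 9 mitochondrial stress genes, 2 were higher and 0 lower, the proteases Clpp (0.69, SE 0.09, limma adjusted p = 0.0101) and Lonp1 (0.56, limma adjusted p = 0.0407). Vars, Clpp and Lonp1 lie on chromosome 17 and Qars on chromosome 9, whose medians were 0.35 and 0.22. Calls of Vars and Clpp held in all 7 fits without 1 sample, those of Qars in 3 and those of Hars and Lonp1 in 1 each. Of 15 other ATF4 and CHOP outputs, 1 was higher and 0 lower, with a median of -0.09, and that one was Tsc22d3, described above beside Ddit4. Sesn2, a leucine sensor among them, had a difference of 0.35 (SE 0.26, limma adjusted p = 0.369). Cdkn1a, of the same list and named after its values were seen, measured 4.03, 3.27 and 5.12 FPKM against 7.41 to 28.1 FPKM. It was just short of the threshold (-1.43, SE 0.39, limma adjusted p = 0.051). With a pseudocount of 0.1, quantile normalization or scaling to the same FPKM sum, the list gave 1 higher and 1 lower.

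Eif2ak3 (PERK) was lower, as given above, and the list of other endoplasmic reticulum genes gave no call. Of 23 chaperones and genes of the ATF6 and XBP1 arms, 0 were called by limma in either direction and 4 had an unadjusted p under 0.05, with a median log2 difference of 0.05. After scaling every sample to the same FPKM sum, 3 of the 23 were called lower. Hspa5 (BiP), the main chaperone of the compartment, measured 310, 457 and 344 FPKM in leukemic cells and 357, 340, 369 and 340 FPKM in preleukemic cells (0.06, SE 0.13, limma adjusted p = 0.785, 95% interval -0.25 to 0.36). Xbp1 measured 40.7, 51.9 and 56.7 FPKM against 50.8, 50.1, 43.7 and 46.2 FPKM (0.05, SE 0.12, limma adjusted p = 0.805).

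**Figure D4:**
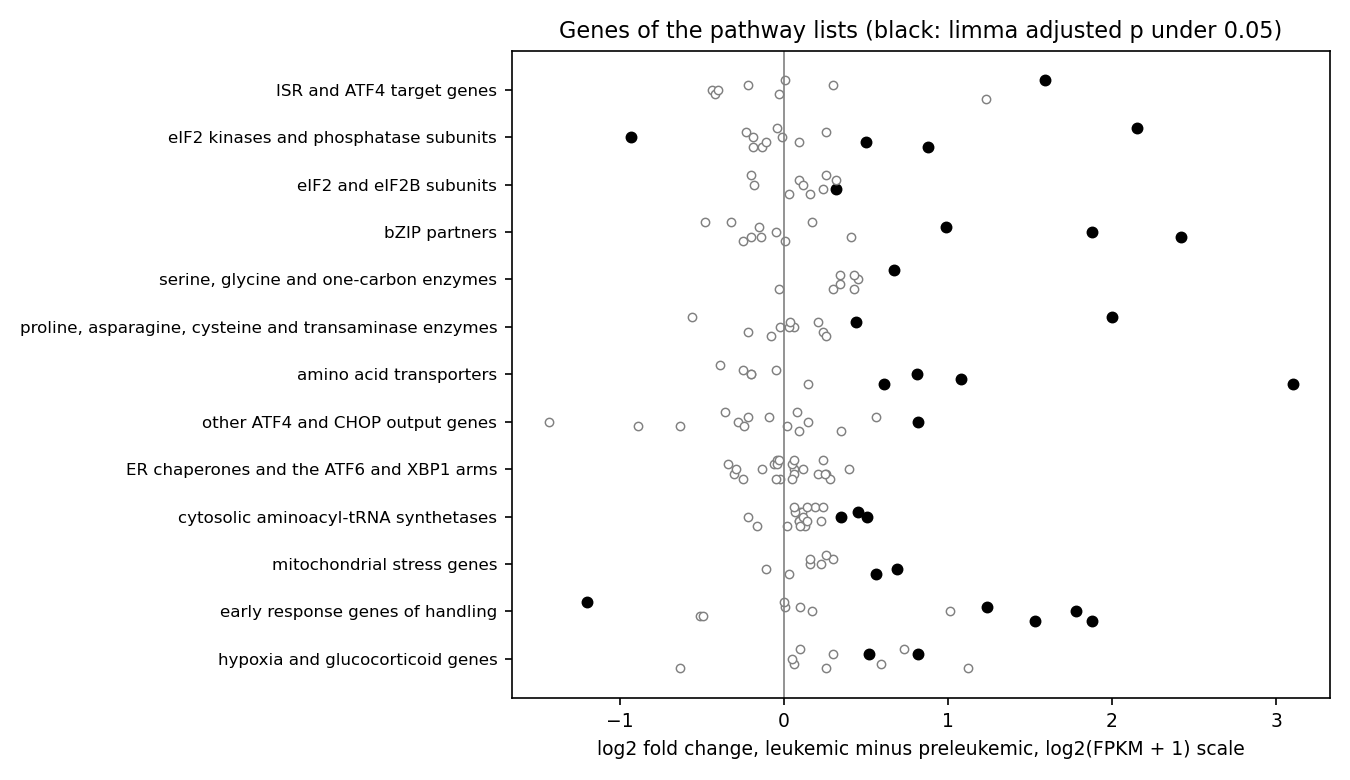
Log2 difference (leukemic less preleukemic, log2(FPKM + 1)) of each tested gene of the ISR and ATF4 target genes and of the pathway lists, 1 point per gene, with called genes marked. Calls are 1 of 9 for the ISR and ATF4 target genes, 4 of 10 for amino acid transporters, 4 of 13 for the eIF2 kinases and phosphatase subunits and 0 of 23 for the endoplasmic reticulum list. Over all genes 14.7% were called.

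Over the 150 distinct genes tested in these pathway lists, 24 were higher and 2 lower, or 17.3% against 14.7% of all genes. That split depends on the scaling, with 17 higher and 13 lower after scaling every sample to the same FPKM sum. Calls depended on single preleukemic samples: the lists gave 15, 11, 8 and 4 calls without preleukemic 1, 2, 3 and 4, and all genes gave 955, 468, 279 and 157.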

How the data were processed

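Spleen BCP cells were sorted, and stranded mRNA libraries were sequenced. The authors deposited 1 FPKM value per gene and sample, with no value below 0.01. Their processing notes name STAR 2.5.0b, bedtools 2.17.0, Cufflinks 2.2.1, Bowtie, DESeq2 and mm10, without the role of each or whether counting used strand, so that reads of overlapping genes on opposite strands may not be told apart. Since FPKM is not a count, limma 3.58.1 in R 4.3.3 (lmFit, eBayes with trend) was fitted to log2(FPKM + 1) for the 10541 genes with a sum of at least 10, with no covariate and Benjamini-Hochberg adjustment over all of them, in place of the authors' count model. Changes of low genes are understated on this scale. The fit takes a common spread for both groups, so that p-values and intervals are less certain where the spreads differ. Samples were grouped by their labels, which do not say more of the replicates than a number, so that p-values measure the spread between these samples. The 10 genes and all lists were chosen with earlier results of these data known. Named are the 10 genes, 15 fixed pathway genes, up to 3 called genes a list by size of change, the 2 genes most like Atf4 and each called ISR gene, and up to 2 markers a list by level. Atf3, below the filter, was tested by exact permutation over 35 labelings. Depth came from the steps of low values of 2243 genes, of which 76.5% to 81.9% per sample were whole within 0.1 fragments, against 20% for evenly spread values. Intervals cover 95%, and counting errors cover counting alone. Positions are those of the table, with 1 added to each start, on GRCm38. Sequences are from RefSeq. The alternatives were a pseudocount of 0.1, no filter or a sum of 70, 3 scalings, no trend, a replicate block and leaving out samples. The fit was tested on simulated data. Python 3.11.15 and matplotlib 3.10.9 were used.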

Additional observations from a re-analysis of the deposited data

Results flagged for a closer look

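Of the 59 genes examined, 7 had preleukemic 1 standing apart from the other 3 preleukemic samples by Dixon's ratio on log2(FPKM + 1) (the gap to the nearest sample over the whole range above its 95% critical value), where chance alone marks about 1 gene in 20. Chac1 was the one ISR gene among them, at 2.62 FPKM in preleukemic 1 against 1.55 to 1.66 FPKM (ratio 0.879). The other pathway genes were Mthfd2 at 33.6 against 21.5 to 23.1 FPKM (0.837), Gclm at 18.1 against 8.61 to 9.66 FPKM (0.848), Slc6a9 at 3.44 against 0.286 to 0.491 FPKM (0.881) and Ier3 at 0.761 against 0.01 to 0.0827 FPKM (0.875). The red cell genes Hbb-b1 (1577 against 129 to 168 FPKM, ratio 0.894) and Hba-a1 (401 against 26.8 to 38.2 FPKM, ratio 0.871) stood apart in the same sample. The genes share the samples and are not independent, and the part of red cell RNA in the pathway genes was not tested.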

How the results depend on the processing

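Among the 57 named genes tested, no difference that passed the threshold in either fit changed sign under the alternatives run. Genes called numbered 951 with an FPKM sum of at least 70, 2917 with samples scaled to the same FPKM sum, and 157 to 1625 when leaving out 1 sample, against 1553. ISR genes called were 0 without the filter (3 of 10 at an unadjusted p under 0.05), 2 without leukemic 2 and preleukemic 1 (chosen after seeing the data), and 0 to 2 when leaving out 1 sample, against 1. Pathway list genes called were 16 without leukemic 2 and preleukemic 1, and 4 to 24 when leaving out 1 sample, against 26. With the replicate number as a block, limma called 0 genes (2429 at an unadjusted p under 0.05), 0 ISR genes and 0 list genes; the numbers do not pair the samples, since correlations of same-numbered deviations were 0.03, 0.05 and -0.09. The causes were not tested. Depth limits Atf3, Chac1 and Slc7a11 most.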
